A study of Mus musculus with 12 samples.

Results

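Chromatin accessibility after stimulation was compared between macrophages with and without a diabetic history, in the 4 second-phase ATAC-seq libraries of a series of 12. ATAC-seq cuts open DNA with the Tn5 transposase, so the reads in a peak measure how open that stretch of chromatin is. The members are 2 libraries of diabetic-trained and 2 of untrained bone marrow derived macrophages, grown from the marrow of male C57BL/6J mice aged 8 weeks when they entered the study. Diabetic-trained cells came from mice given streptozotocin, a toxin of insulin-making cells, at 42 to 45 mg/kg daily for 5 days after a 12 hour fast, and then left hyperglycaemic (above 16.9 mmol/L) for 6 weeks. Untrained cells came from control mice. Progenitors of either kind matured with M-CSF at 5 mmol/L glucose over 7 days (the rest phase). For 16 hours they then received IFN-γ at 10 ng/mL together with LPS at 100 ng/mL. All second-phase groups share this culture and stimulus, so no unstimulated control stands inside the comparison, and the 4 rest-phase libraries were used for that check. The labels do not say whether 2 libraries of a group came from separate animals, so a p-value here reflects the spread between libraries alone, and that spread could be technical.

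The deposited second-phase table gives 2 log2 group means for each of 139999 peaks, and its header does not say which mean belongs to which group. They are named A, for the first of the means, and B, and nothing below says which of them is diabetic-trained. A "centred difference" is A minus B in log2 units after subtracting its median over all peaks, 1.14. The reads of each library were recovered from the means, and a "level" is log2 of quantile-scaled reads plus 1. Libraries are named A1, A2, B1 and B2, numbers that are not tied to the replicate numbers in the labels. The 4 libraries held 17994363, 10299555, 3832347 and 6075270 reads in peaks, and the median peak held 52, 27, 18 and 18 reads, so B1 and B2 measure single peaks least precisely. On the authors' scale the reads in peaks were 15908546 (A1), 11307024 (A2), 2823783 (B1) and 7852314 (B2). A group mean is therefore not an even average of its libraries: A1 weighs more in A, and B2 weighs more in B. Where the libraries of a group differ, the centred difference also carries this unequal weight.

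IFN-γ signals through its receptor to the interferon regulatory factors, and LPS signals through TLR4 and CD14 to NF-κB. In macrophages the stimuli together open promoters and enhancers of guanylate-binding proteins, chemokines, inflammatory cytokines, antigen presentation genes and the enzymes Nos2 and Acod1. The interferon-stimulated response element (ISRE) is bound by interferon regulatory factors and the κB element by NF-κB, and the GAS element is a short palindrome in promoters that respond to IFN-γ.

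Each library resembled a library of the other group more than the other library of its own group. Levels over 139926 peaks correlated at 0.826 between A1 and A2 and at 0.740 between B1 and B2, but at 0.895 between A1 and B1 and at 0.938 between A2 and B2 (Pearson, across peaks, as a description). The remaining pairs across the groups were less alike, at 0.794 for A1 with B2 and 0.764 for A2 with B1. A1 correlated at 0.978 and 0.961 with the libraries of the first rest-phase mean and at 0.847 and 0.887 with those of the second, and B1 at 0.899 and 0.891 and at 0.810 and 0.821. For A1 and the nearest rest-phase library the read split varied by 1.94 times sampling noise, against 15.7 times for A1 with A2. Each second-phase library was next set against the 4 rest-phase libraries over 60792 peaks with a mean of both log2 group means of at least 5. In A1, 2 peaks (0.00329%) lay at least 2-fold above the highest rest-phase library. In B1, 175 (0.288%) did so. In A2 the number was 4927 (8.1%), and in B2 it was 5699 (9.37%). At least 2-fold below the lowest rest-phase library lay 6 peaks in A1 (0.00987%), 977 in B1 (1.61%), 1050 in A2 (1.73%) and 2183 in B2 (3.59%). In each group, then, 1 library holds many peaks above the rest-phase level and the other few, although the labels give all 4 libraries the same stimulus. Whether libraries were exchanged between phases or groups before the means were made was not tested, and each A against B value below rests on the deposited grouping. The results below are given with all 4 libraries. For some of them the values for A1 against B1 and for A2 against B2 stand beside. These are pairs of single libraries that have no replicate check.

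Promoters of the stimulus response show this at single genes. Gbp2, a guanylate-binding protein induced by interferon, had start-peak levels of 6.09 (A1), 8.62 (A2), 6.18 (B1) and 8.72 (B2), against 5.69 to 6.51 in the rest phase. Isg15, a ubiquitin-like antiviral protein, stood at 5.61 (A1), 7.85 (A2), 4.92 (B1) and 8.15 (B2), against 5.71 to 5.96 at rest. Socs1, the feedback inhibitor of interferon signalling, stood at 7.61 (A1), 9.21 (A2), 7.73 (B1) and 8.75 (B2), against 7.75 to 7.86 at rest. A2 and B2 were the high libraries at all of these, and the groups overlapped. The 250 bases before the start of these genes and of Acsl1 are shown because their peaks carry the contrast between libraries, and, for Acsl1, its absence at a start. They are RefSeq sequences of build GRCm38.p6 (the deposited peaks are on mm10, the same build), 5′ to 3′ on the gene's strand, with ISRE, GAS and κB letters in capitals.
Gbp2, chr3:142620413-142620662, plus strand: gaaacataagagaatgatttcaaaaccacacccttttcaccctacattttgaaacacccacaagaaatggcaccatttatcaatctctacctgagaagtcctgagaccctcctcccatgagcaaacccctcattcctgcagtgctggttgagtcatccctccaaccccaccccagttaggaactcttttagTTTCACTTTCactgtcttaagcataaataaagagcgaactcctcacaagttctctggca
Isg15, chr4:156200819-156201068, minus strand: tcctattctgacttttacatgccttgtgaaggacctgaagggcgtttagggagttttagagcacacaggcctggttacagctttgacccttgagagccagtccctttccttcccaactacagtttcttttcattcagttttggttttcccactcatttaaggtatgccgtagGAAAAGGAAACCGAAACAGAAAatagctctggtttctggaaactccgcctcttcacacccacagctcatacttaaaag
Socs1, chr16:10785537-10785786, minus strand: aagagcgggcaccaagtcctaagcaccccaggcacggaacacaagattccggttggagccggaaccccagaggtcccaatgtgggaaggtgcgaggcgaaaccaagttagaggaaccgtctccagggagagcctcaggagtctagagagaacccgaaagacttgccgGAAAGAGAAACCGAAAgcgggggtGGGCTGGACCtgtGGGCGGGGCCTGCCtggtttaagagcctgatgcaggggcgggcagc
Acsl1, chr8:46470787-46471036, plus strand: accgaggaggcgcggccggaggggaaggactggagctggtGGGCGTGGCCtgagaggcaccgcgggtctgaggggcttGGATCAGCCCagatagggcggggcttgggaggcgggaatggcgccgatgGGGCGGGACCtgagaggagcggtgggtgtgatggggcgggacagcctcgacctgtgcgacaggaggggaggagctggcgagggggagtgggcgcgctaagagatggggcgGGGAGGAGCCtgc
The Gbp2 stretch holds 1 ISRE match, that of Isg15 3 overlapping ones, and that of Socs1 2 overlapping ISRE matches and 3 κB matches, while the Acsl1 stretch holds 4 κB matches and no ISRE or GAS match.

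Letters were searched on both strands of 300-base promoters as TTTCNNTTTC (ISRE), TTCNNNGAA (GAS) and GGGNNNNNCC (κB), and matches may overlap. Of 9441 promoters with a peak over them, 3.05% held the ISRE letters, 6.90% the GAS letters and 67.6% the κB letters. Of all 32851 RefSeq promoters the shares were 3.44%, 8.30% and 50.8%. The 288 ISRE promoters had mean levels of 6.67 (A1), 7.01 (A2), 6.51 (B1) and 6.93 (B2), against 6.69 to 6.88 in the rest phase. All 9441 promoters had 6.91 (A1), 6.98 (A2), 6.82 (B1) and 6.85 (B2), so the difference between the libraries of a group was wider at the ISRE promoters. Between the groups, ISRE promoters had a median centred difference of 0.19, beside 0.32 for all promoters with a peak, and of 0.09 for A1 minus B1 and 0.05 for A2 minus B2.

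Genes of the stimulus were followed from receptors to effectors at 34 named genes, each at its start peak or, without one, at its closest peak. The receptors showed no such step: Ifngr1, a subunit of the IFN-γ receptor, had levels of 9.44 (A1), 9.52 (A2), 9.63 (B1) and 9.32 (B2), against 9.33 to 9.50 at rest. Tlr4, the LPS receptor, had 8.90 (A1), 8.11 (A2), 8.68 (B1) and 7.81 (B2), with A2 and B2 below the rest-phase range of 8.29 to 8.84. Irf1, an interferon regulatory factor, had 8.00 (A1), 9.40 (A2), 8.26 (B1) and 9.56 (B2), against 7.95 to 8.42 at rest. At Irf1 the same libraries, A2 and B2, were the high ones.

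Among effectors the spread inside a group was wider. Ccl5, a chemokine that draws T cells, had levels of 4.51 (A1), 8.47 (A2), 5.16 (B1) and 8.55 (B2), against 3.63 to 5.15 at rest. Acod1, which makes itaconate, had 5.92 (A1), 8.93 (A2), 6.18 (B1) and 9.15 (B2), against 4.90 to 5.61 at rest. Nos2, the inducible nitric oxide synthase, had 7.07 (A1), 8.41 (A2), 7.21 (B1) and 8.98 (B2), against 6.10 to 6.76 at rest. At Acod1 and Nos2 the lower libraries A1 and B1 also lay above every rest-phase library, by less than 2-fold. Of the 34 genes, 13 were at least 2-fold above the highest rest-phase library in A2, 15 in B2, 0 in A1 and 0 in B1. The shares of all peaks with a mean of at least 5, a filter not set on the 34, were 8.1%, 9.37%, 0.00329% and 0.288%. Those 13 include Cxcl9, Cxcl10, Il6, Ptgs2 and Csf1r, the M-CSF receptor, and the 15 include Gbp5 and H2-Ab1.

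**Figure D1:**
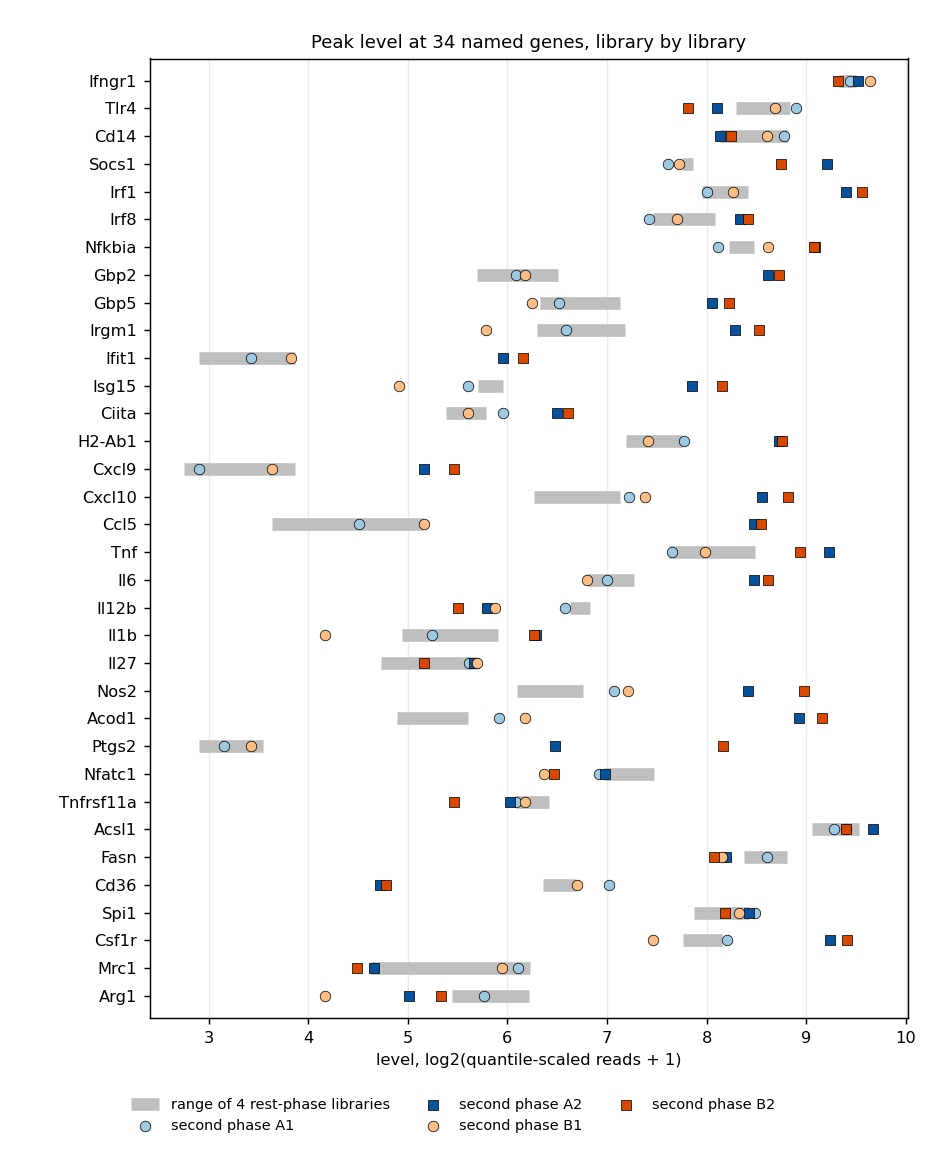
Level of the peak at each of 34 named genes (x axis, log2 of quantile-scaled reads plus 1) in the 4 second-phase libraries (points) and the range of the 4 rest-phase libraries (grey bars). At most interferon and LPS response genes the squares (A2 and B2) lie to the right of the grey bar, and the circles (A1 and B1) lie on or near it: for Ccl5, 8.47 and 8.55 against 4.51 and 5.16.

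Few of these genes passed 2-fold between the groups. Of the 34, 2 passed a centred difference of 2-fold in favour of A (Cd36 and Il12b, a subunit of IL-12) and 2 in favour of B (Cxcl9 and Ptgs2, the inducible cyclooxygenase, at its closest peak). Over all 139999 peaks, 3461 (2.47%) passed 2-fold higher in A and 13196 (9.43%) higher in B. Il12b passed narrowly, at 1.003, with overlapping groups and 26 reads each in B1 and B2. Its levels were 6.58 (A1), 5.80 (A2), 5.87 (B1) and 5.50 (B2), all below the rest-phase range of 6.63 to 6.83. The Il12b difference was 0.71 between A1 and B1 and 0.30 between A2 and B2. The Ptgs2 peak, 8306 bases from the start, had levels of 3.15 (A1), 6.47 (A2), 3.43 (B1) and 8.16 (B2) and a centred difference of -2.44. Its difference was -1.68 between A2 and B2 and -0.28 between A1 and B1, and without B2 the centred difference turned to 1.43. Ptgs2 was the 1 gene of the 34 whose A2 and B2 levels were 2-fold apart. Il1b and Arg1 were the 2 genes past 2-fold between A1 and B1, at 1.08 and 1.60, on 12 reads each in B1. The libraries of the groups did not overlap at 3 of the 34 genes, all higher in A, no larger a share than the 11.2% of all peaks wholly higher in A: Nfatc1, the master regulator of osteoclasts, Fasn, the fatty acid synthase, and Spi1, which encodes PU.1.

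Nfatc1 had levels of 6.92 (A1), 6.98 (A2), 6.37 (B1) and 6.47 (B2), a gap of 0.45 between the groups and a centred difference of 0.86. Its rest-phase range was 6.97 to 7.47, so A1 and both libraries of B lay below it. Fasn had 8.61 (A1), 8.20 (A2), 8.15 (B1) and 8.08 (B2), a gap of 0.05. Spi1 had 8.48 (A1), 8.42 (A2), 8.33 (B1) and 8.19 (B2), a gap of 0.09. None of the 3 passed an adjusted p under 0.05 by limma, a linear model with a shared estimate of spread.

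Over all peaks limma called 0 of 139982 (0%) at an adjusted p under 0.05, with 1032 (0.737%) at an unadjusted p under 0.05, 457 of them higher in A and 575 in B. It also called 0 under each of 8 other settings, of which the authors' scaling came nearest with a smallest adjusted p of 0.0917 and 5331 peaks at an unadjusted p under 0.05. The libraries of A lay wholly above those of B at 15689 peaks (11.2%) and wholly below at 14375 (10.3%). Among the 60794 peaks with a mean of at least 5 these numbers were 6072 (9.99%) and 3594 (5.91%).

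The library pairs shared few differences. Across 60794 peaks with a mean of at least 5, A1 minus B1 correlated with A2 minus B2 at 0.011, a description over peaks of the same 4 libraries. The difference had an SD over these peaks of 0.51 for A1 minus B1 and 0.37 for A2 minus B2, against 0.90 for A1 minus A2 and 1.09 for B1 minus B2, so each of these pairs across the groups differed less than the libraries inside either group. A1 minus B1 passed 2-fold at 2980 of these peaks upward and 822 downward. A2 minus B2 passed it at 423 and 433. Both pairs passed 2-fold in the same direction at 28 peaks higher in A and 14 higher in B, and in opposite directions at 55.

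The centred difference of the group means followed the height of the peak. Peaks were divided into 10 equal classes by mean signal. In the lowest class the median was -0.82 and 40.9% of peaks passed 2-fold higher in B, and in class 9 it was 0.42 and 0.329% did so. A1 minus B1 moved from -0.28 in the lowest class to 0.05 in class 9, while A2 minus B2 stayed between -0.04 and 0.03 in each of the 10. Peaks within 1 kb of a gene start, which are the tallest, had a median of 0.26, and peaks beyond 100 kb from a start had -0.25. After centring within 50 bins of signal these became 0.06 and -0.10. A1 was deeper than B1 and A2 deeper than B2, and the part of depth in this trend was not tested. For this reason list medians are given below also within bins of signal.

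**Figure D2:**
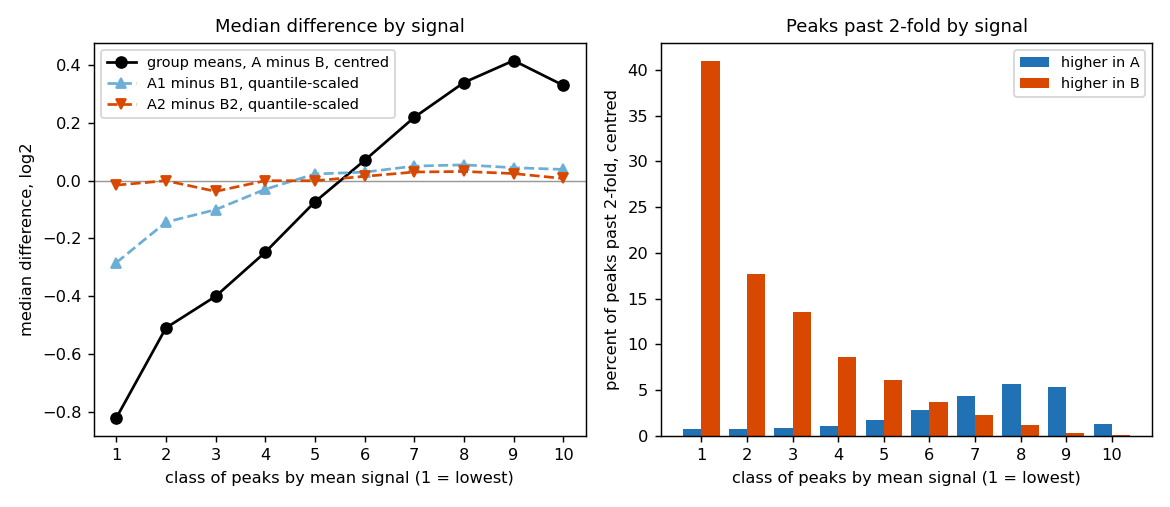
Left, the median difference in each of 10 classes of peaks by mean signal for the centred group means and for the library pairs A1 minus B1 and A2 minus B2 (log2). Right, the percent of peaks past 2-fold after centring: 40.9% were higher in B in the lowest class.

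The interferon-induced GTPases, guanylate-binding and immunity-related GTPases that attack vacuoles of intracellular microbes, showed the widest spread inside a group of the 27 lists. Their 90 peaks (17 of 18 genes) had mean levels of 4.74 (A1), 6.35 (A2), 4.63 (B1) and 6.53 (B2), against 4.61 to 4.73 at rest. Of 64 peaks with a mean of at least 5, 38 in A2 and 43 in B2 were at least 2-fold above the highest rest-phase library, and 0 in A1 and B1. Of all peaks with that mean, 8.1% in A2, 9.37% in B2, 0.00329% in A1 and 0.288% in B1 were so. Between the groups 0 peaks passed 2-fold higher in A and 12 higher in B, with a median centred difference of -0.54, or -0.71 within bins of signal. The counts stand beside 2.47% and 9.43% of all peaks, and the median turned to 0.33 without A1 and to 0.92 without B2. Their libraries did not overlap at 2 peaks higher in A and 3 higher in B, beside 11.2% and 10.3% of all peaks. The medians of the pairs were 0.14 for A1 minus B1 and -0.16 for A2 minus B2. The lowest centred difference among peaks with a mean of at least 5, 17282 bases from the start of Gbp8, had 4.14 (A1), 5.30 (A2), 3.43 (B1) and 6.56 (B2).

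Other lists of the stimulus response repeated the order of the libraries with smaller steps. The antiviral interferon response had mean levels of 5.42 (A1), 6.00 (A2), 5.33 (B1) and 6.05 (B2), against 5.33 to 5.38 at rest, and antigen presentation 5.73 (A1), 6.43 (A2), 5.71 (B1) and 6.49 (B2), against 5.63 to 5.78. Inflammatory effectors and the inflammasome had 5.63 (A1), 6.42 (A2), 5.55 (B1) and 6.46 (B2), and inflammatory cytokines 5.44 (A1), 5.82 (A2), 5.41 (B1) and 5.91 (B2). Between the groups their median centred differences were -0.09, -0.05, -0.04 and -0.04 in the order given. Within bins of signal the medians were -0.22, -0.32, -0.16 and -0.13. Peaks past 2-fold higher in A and in B numbered 3 and 11 of 144 for the antiviral response, 2 and 17 of 145 for antigen presentation, 3 and 12 of 132 for effectors and 2 and 25 of 239 for cytokines. Chemokines had a median of 0.16 (0.0045 within bins, -0.04 without B1) and 4 and 6 of 97. These counts are read against the 2.47% and 9.43% of all peaks.

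**Figure D3:**
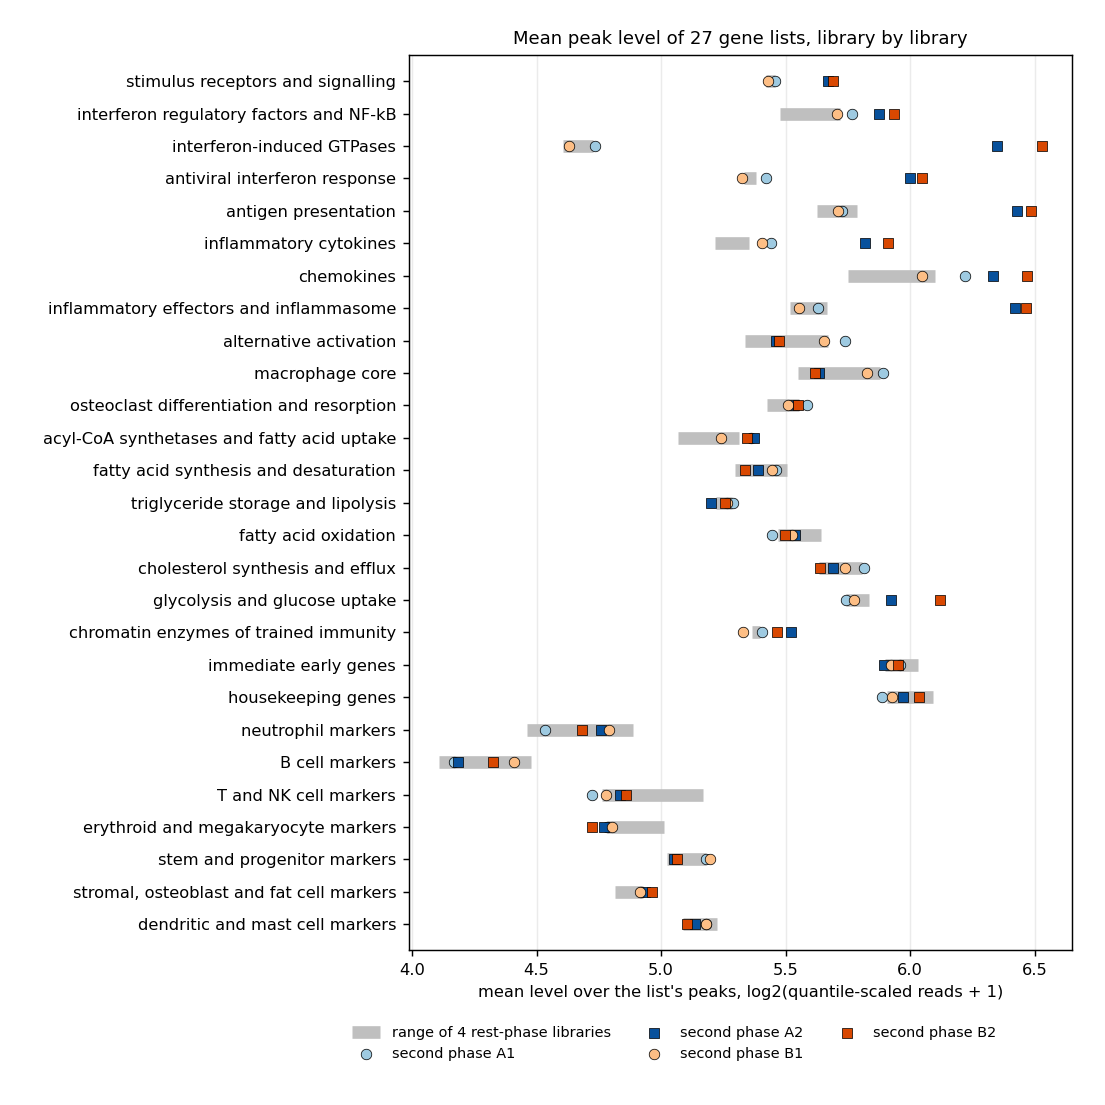
Mean level over all peaks of each of 27 gene lists (x axis, log2 of quantile-scaled reads plus 1) in the 4 second-phase libraries (points) and the range of the 4 rest-phase libraries (grey bars). The interferon-induced GTPases show the widest split inside a group, 4.74 and 6.35 in A and 4.63 and 6.53 in B.

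Genes of macrophage identity and alternative activation, the program opposed by IFN-γ, had lower mean levels in A2 and B2 than in A1 and B1, but A2 and B2 lay inside the rest-phase range. The macrophage core list had mean levels of 5.89 (A1), 5.63 (A2), 5.83 (B1) and 5.62 (B2), against 5.55 to 5.88 at rest, and alternative activation 5.74 (A1), 5.46 (A2), 5.65 (B1) and 5.47 (B2), against 5.34 to 5.67. Of 136 core peaks with a mean of at least 5, 9 in A2 lay at least 2-fold above the rest phase and 6 below, and 8 and 9 in B2. The shares of all peaks with that mean were 8.1% above and 1.73% below in A2, and 9.37% and 3.59% in B2. Single genes went different ways. Mrc1, the mannose receptor, was lower in A2 and B2: its start peak had 6.11 (A1), 4.66 (A2), 5.95 (B1) and 4.49 (B2). Its rest-phase range, 4.63 to 6.23, holds the A2 level. Csf1r, of the core list, was higher in A2 and B2, with 8.20 (A1), 9.24 (A2), 7.47 (B1) and 9.41 (B2). At Arg1 the pairs disagreed, with 5.76 (A1), 5.01 (A2), 4.17 (B1) and 5.33 (B2). Between the groups the macrophage core had a median centred difference of 0.28 (0.12 within bins). Past 2-fold were 15 of its 246 peaks higher in A (6.10%) and 11 higher in B (4.47%), beside 2.47% and 9.43% of all peaks. Alternative activation had a median of 0.23 (0.10 within bins, -0.0064 without A1) with 14 and 14 of 245 (5.71% each), beside the same shares of all peaks. The highest centred difference of the macrophage core among peaks with a mean of at least 5, 23427 bases upstream of Mertk, a receptor for dying cells, had 6.68 (A1), 5.86 (A2), 5.78 (B1) and 5.02 (B2). That of alternative activation, far from the start of Klf4, had 7.88 (A1), 5.73 (A2), 7.62 (B1) and 5.22 (B2), with a wide overlap of the groups.

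Acsl1, the long-chain acyl-CoA synthetase in the title of the series, had 23 assigned peaks, 0 of them past 2-fold higher in A and 4 higher in B (2.47% and 9.43% of all peaks). Its start peak (chr8:46470652-46471051) had levels of 9.28 (A1), 9.67 (A2), 9.40 (B1) and 9.40 (B2), against 9.06 to 9.53 at rest. The groups overlapped there, with a limma difference of 0.08 (SE 0.19, n = 2 and 2, adjusted p = 1.00). Upstream peaks of the same gene carried the contrast between libraries. The peak 44.4 kb upstream had 2.32 (A1), 7.55 (A2), 3.43 (B1) and 7.50 (B2), against 2.91 to 3.86 at rest. The peak 47.9 kb upstream had 3.43 (A1), 7.12 (A2), 3.43 (B1) and 6.95 (B2), and that 38.7 kb upstream 4.87 (A1), 8.15 (A2), 4.17 (B1) and 8.19 (B2). Of 7 peaks more than 30 kb upstream, a limit chosen after the values were seen, 5 in A2, 6 in B2, 0 in A1 and 1 in B1 were at least 2-fold above every rest-phase library. The shares of all peaks with a mean of at least 5, a filter not set on the 7, were 8.1%, 9.37%, 0.00329% and 0.288%. None of the 7 differed by 2-fold between A2 and B2, and their groups overlapped. Among peaks with a mean of at least 5, the lowest centred difference of the list of acyl-CoA synthetases lay 63.9 kb upstream of Acsl1, with 3.21 (A1), 6.29 (A2), 4.77 (B1) and 6.64 (B2) and -1.10. It turned to 0.17 without A1 and to 0.25 without B2.

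**Figure D4:**
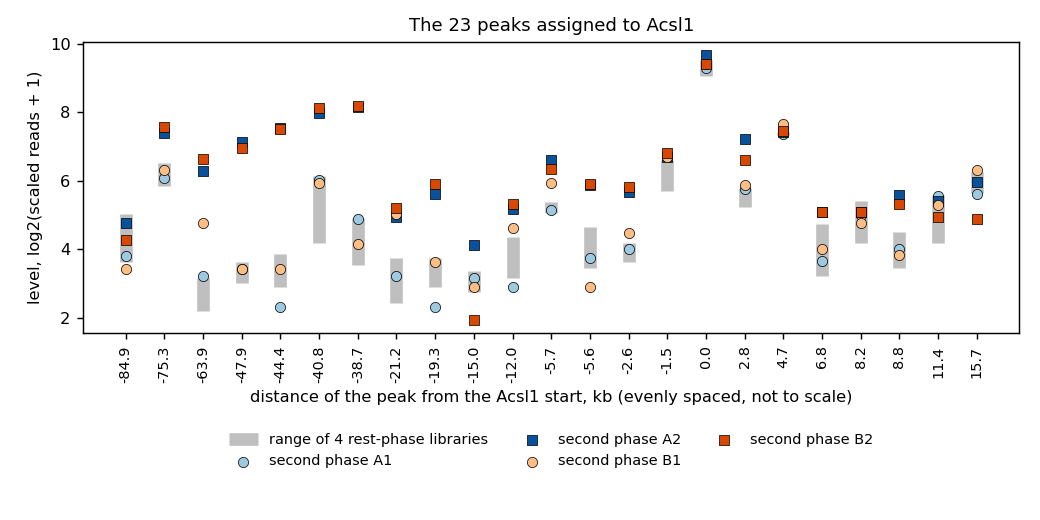
Level of each of the 23 peaks assigned to Acsl1 (y axis, log2 of quantile-scaled reads plus 1), ordered by distance from the start (x axis, kb, evenly spaced), in the second-phase libraries (points) and the range of the rest-phase libraries (grey bars). Between 63.9 and 38.7 kb upstream A2 and B2 lie above A1 and B1, while at the start all 4 lie between 9.28 and 9.67.

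Other lipid lists had peaks past 2-fold in either direction, to be read beside the 2.47% and 9.43% of all peaks. Acyl-CoA synthetases and fatty acid uptake had 9 peaks past 2-fold higher in A and 14 higher in B of 206, with a median of 0.13. Fatty acid synthesis and desaturation had 9 and 16 of 188 (0.06), triglyceride storage and lipolysis 13 and 43 of 263 (4.94% and 16.3%, median 0.01), fatty acid oxidation 2 and 6 of 131 (0.01), and cholesterol synthesis and efflux 14 and 15 of 245 (0.21). Within bins of signal these medians were 0.05, 0.08, 0.03, -0.04 and 0.10 in the order given. The mean levels of these lists ran from 5.20 to 5.82 over all libraries, with no step like that of the interferon lists. Single peaks did step. Cd36, a scavenger receptor that takes up fatty acids, had a start peak at 7.02 (A1), 4.72 (A2), 6.70 (B1) and 4.78 (B2), with the rest phase between 6.36 and 6.68. Its centred difference was 1.32, but A2 minus B2 was -0.05 and A1 minus B1 0.33. A peak 63178 bases from the start of Lpl, the lipoprotein lipase, had 8.12 (A1), 5.66 (A2), 7.64 (B1) and 5.02 (B2), also with overlapping groups.

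Osteoclast genes, which the series' title makes of interest through bone healing, had 16 of 486 peaks past 2-fold higher in A (3.29%) and 32 higher in B (6.58%). The shares of all peaks were 2.47% and 9.43%. The median of the osteoclast list was 0.08, or 0.02 within bins of signal. The libraries of the groups did not overlap at 56 of its peaks higher in A (11.5%) and 46 higher in B (9.46%), close to the 11.2% and 10.3% of all peaks. Tnfrsf11a, which encodes the osteoclast receptor RANK, had a start peak at 6.09 (A1), 6.02 (A2), 6.18 (B1) and 5.46 (B2). Atp6v0d2, a proton pump subunit of osteoclasts, had the list's highest difference among peaks with a mean of at least 5 at its start, 1.51, with 7.04 (A1), 6.04 (A2), 5.16 (B1) and 5.61 (B2) and no overlap. The chromatin enzymes tied to trained immunity were wholly higher in A at 59 of 388 peaks (15.2%) and wholly lower at 21 (5.41%), beside 11.2% and 10.3% of all peaks. Past 2-fold were 12 peaks higher in A (3.09%) and 28 higher in B (7.22%), beside 2.47% and 9.43% of all peaks. The median of the chromatin enzymes was 0.07, or 0.02 within bins of signal.

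The median of glycolysis and glucose uptake had no direction that held under every setting. Of 244 peaks, 4 (1.64%) passed 2-fold higher in A and 32 (13.1%) higher in B, beside 2.47% and 9.43% of all peaks. The libraries did not overlap at 21 (8.61%) higher in A and 40 (16.4%) higher in B, beside 11.2% and 10.3%. The median was -0.09, or -0.22 within bins of signal, and the pairs gave -0.07 (A1 minus B1) and -0.17 (A2 minus B2). With quantile-scaled reads the median was -0.14. It turned to 0.38 without B2, to 0.0008 without A1, to 0.09 over peaks with a mean of at least 5 and to 0.043 over promoter peaks. Without A2 and B2 it was 0.32, which is the pair A1 and B1 on the authors' scale instead of quantile-scaled levels. Between A2 and B2, 4 peaks were 2-fold higher in A and 16 in B, beside 2.65% and 2.86% of all peaks. Between A1 and B1 the numbers were 13 and 17, beside 6.36% and 6.02%. A peak 1026 bases into Gapdh (chr6:125161102-125161501), the glyceraldehyde-3-phosphate dehydrogenase, had 5.24 (A1), 5.80 (A2), 6.93 (B1) and 7.64 (B2), with 64, 53, 44 and 129 reads. Both libraries of B lay above those of A and above the rest-phase range of 6.06 to 6.36, and both libraries of A lay below that range. Its limma difference was -1.77 (SE 0.48, n = 2 and 2, unadjusted p = 0.0107, adjusted p = 1.00). A peak 2112 bases from the start of Eno1, an enolase, had 4.18 (A1), 4.80 (A2), 5.28 (B1) and 6.82 (B2) on 23, 23, 20 and 69 reads, and a centred difference of -2.33. The groups did not overlap there, and B2 was the high library. At Pfkfb4, a regulator of glycolysis, the list's highest difference among peaks with a mean of at least 5 had levels of 7.35 (A1), 6.42 (A2), 6.31 (B1) and 5.82 (B2). Gapdh and Eno1 have near-identical processed copies elsewhere in the genome, so reads there may be split among copies and these values are uncertain. The sources used here do not state how such reads were counted.

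The 10 peaks in each direction with the widest gap between the groups' libraries were chosen by that gap, so their values are a description. Gaps ran up to 1.24 for peaks higher in A and 1.13, at Gapdh, for peaks higher in B. Of these, 9 and 1 exceeded 1. Rhd, a blood group gene of red cells, had an exon peak with 6.12 (A1), 6.12 (A2), 4.48 (B1) and 4.88 (B2). Alas1, the first enzyme of haem synthesis, had a start peak with 6.31 (A1), 6.31 (A2), 5.28 (B1) and 4.71 (B2), and Usp24, a ubiquitin protease, one with 6.02 (A1), 5.84 (A2), 4.61 (B1) and 4.71 (B2). Peli1, a ubiquitin ligase of TLR signalling, had a peak 56842 bases upstream with 6.97 (A1), 6.97 (A2), 5.87 (B1) and 5.90 (B2), and was above the rest-phase range (6.31 to 6.63) in A and below it in B. The other 6 higher in A lay at Zfp397, Wdr26, Ttc32, Mtx2, Ssc4d and D630023F18Rik. These 10 peaks held 14 to 26 reads in B1 and 12 to 35 in B2. Beside Gapdh, those higher in B lay at Pitrm1, Jade1, Exoc6, Tnks2, Slit2, Atp10a, Frem2, Ppfibp2 and Gm36718. Tnks2, a tankyrase, had an intron peak with 4.51 (A1), 5.04 (A2), 5.95 (B1) and 6.44 (B2). All 20 had adjusted p = 1.00 by limma.

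**Figure D5:**
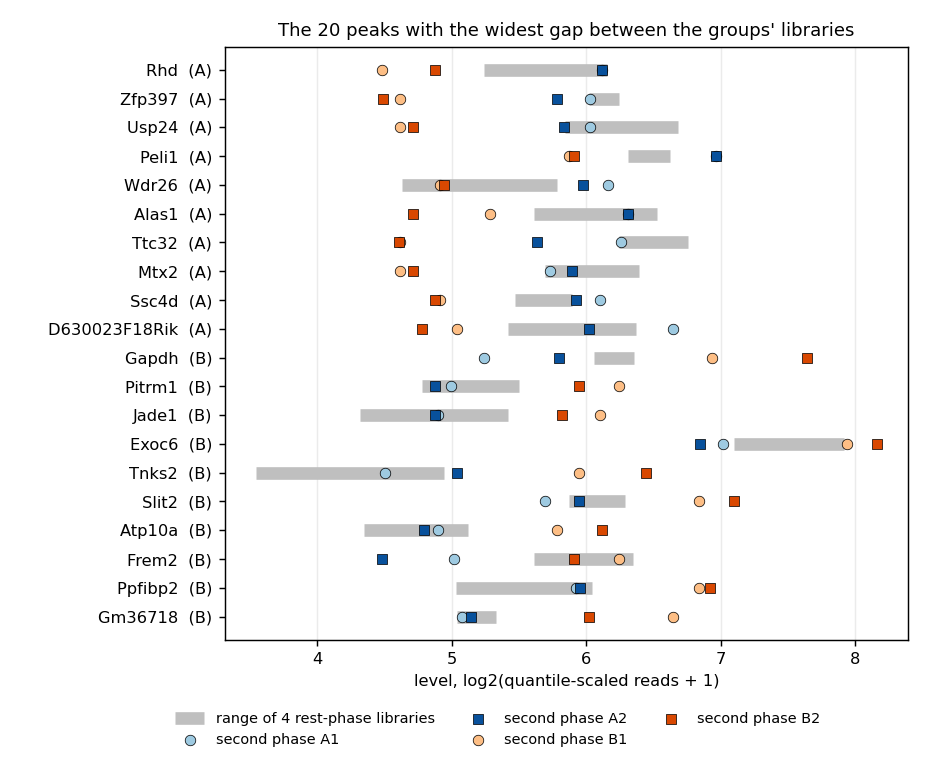
Levels (log2 of quantile-scaled reads plus 1) at the 20 peaks with the widest gap between the libraries of the groups, 10 higher in A and 10 higher in B, with the range of the rest-phase libraries in grey. At Rhd the libraries of A lie at 6.12 and those of B at 4.48 and 4.88, and at Gapdh those of A lie at 5.24 and 5.80 and those of B at 6.93 and 7.64.

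Markers of other marrow cells were low in all libraries. The mean level of B cell markers was 4.17 (A1), 4.18 (A2), 4.41 (B1) and 4.32 (B2), with a median centred difference of -0.70. Of their 118 peaks, 4 (3.39%) passed 2-fold higher in A and 35 (29.7%) higher in B, beside 2.47% and 9.43% of all peaks. Only 23 of the 118 peaks had a mean of at least 5, and over those 23 the median was 0.044. Within bins of signal it was -0.19. The pairs gave -0.30 and -0.16. Neutrophil markers had 4.54 (A1), 4.76 (A2), 4.79 (B1) and 4.68 (B2), and T and NK cell markers 4.72 (A1), 4.83 (A2), 4.78 (B1) and 4.86 (B2). Erythroid, stem cell, stromal and dendritic lists ran from 4.72 to 5.20, below the 5.62 to 5.89 of the macrophage core. The part of other cells in the differences above was not tested. With 2 libraries a group the exact permutation test of a list's mean level cannot give a two-sided p below 0.333, and no list was called.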

How the data were processed

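ATAC-seq reads were counted by the authors over 1 set of 139999 peaks (99.8% of them 400 bp wide) on mm10. The submitters' processing notes name, without roles, DiffBind 3.14.0, DESeq2, MACS2, HOMER 5.1, Bowtie2 2.5.4, bedtools 2.28.0, Picard 3.2.0 and deepTools 3.2.1. The authors deposited, for each peak and group, the log2 of the mean scaled reads of 2 libraries. The deposited fold changes and p-values were not used.

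Each deposited mean above the floor was solved for the pair of whole read numbers that gives it, and all had exactly 1 solution (largest relative miss 3.45e-09). The 17 peaks listed at 0 in a mean were left out of all work on reads. Libraries were numbered by the rising worth of a read. Reads of the 4 libraries were quantile-scaled, with rest-phase libraries mapped to the same distribution, and logged with a pseudocount of 1. limma 3.58.1 (trend, empirical Bayes, Benjamini-Hochberg over all peaks) compared A with B. The recovery was tested on simulated data, where it returned the reads except in runs whose libraries' worths of a read were close to a ratio of small whole numbers. Those failures showed as values with none or several solutions. The limma fit was also tested on simulated data with 2 libraries a group, where it missed nearly all 2-fold changes and found much larger ones. The simulation held no split like that between A1 and A2 or between B1 and B2. It therefore does not show what size of change could be found in these data. Past 2-fold means a centred difference of at least 1 in log2 units. The sources used here do not state total library sizes, and the part of depth in the deposited means was not tested.

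Named are 35 genes of the stimulus, lipid, osteoclast and macrophage programs (Tap1 had no assigned peak, and 1 further gene of the rule is not reported here), the 10 peaks a direction with the widest gap among peaks with a mean of at least 5 and a symbol, some of the highest and lowest peaks of each gene list, and all Acsl1 peaks. The 27 lists hold 553 genes, of which 528 had a peak. The members, lists and genes were chosen with earlier results of these data known. The first-phase table was not used here, since its libraries belong to another comparison. Alternatives were other centrings, scalings, pseudocounts and filters and leaving out each library. Leaving out A1 with B1, or A2 with B2, was added after the data were seen.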

Additional observations from a re-analysis of the deposited data

How the results depend on the processing

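The counts past 2-fold depended on nearly every choice. Without centring, A was higher at 80951 peaks and B at 739. Centred on promoter peaks, the numbers were 822 and 22825, and with quantile-scaled reads 1324 and 2070. Peaks higher in B numbered 5331 when centred within bins of signal, 694 with the filter on low values and 3648 with a linear pseudocount of 10. The peaks higher in A kept within 1.5 times of 3461 under those 3 settings. Leaving out single libraries gave 2594 (without A1) to 18556 (without B2) higher in A and 13057 (without A1) to 25099 (without A2) higher in B; without B1 11964 were higher in A. Without A2 and B2, the numbers were 16779 and 29035, and without A1 and B1, 5071 and 10215. Peaks whose libraries do not overlap numbered 85577 higher in A and 1886 in B under the authors' scaling, and 8953 and 33950 scaled to total reads in peaks, which moved the median difference to 1.14 and -0.31. limma called 0 peaks under every setting run.

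Among named peaks with a centred difference past 2-fold, some changed sign when 1 library was left out. Over the 4 libraries left out in turn, Cxcl9 ranged from -3.52 (without A2) to 0.040 (without A1), Ptgs2 from -5.97 (without A2) to 1.43 (without B2) and Gbp8 from -2.48 (without A2) to 0.56 (without B2). The Acsl1 peak 63.9 kb upstream ranged from -4.23 (without A2) to 0.25 (without B2), with 0.17 without A1. Without A1 and without B1 the values were -0.83 and 1.99 at Cd36, -0.20 and 2.34 at Klf4 and -0.23 and 2.75 at Lpl, and without both the value at Cd36 was -0.19. The cause was not tested. Of 27 list medians, 11 changed sign without A1, 9 without A1 and B1, and 8 without A2 and B2. No paired analysis was possible because the recovered libraries carry no replicate number. Depth limits B1 most, where 55.6% of peaks held under 20 reads.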

Other observations

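Chromosome X differed from the autosomes. Its 2952 peaks had a median centred difference of 0.23, or 0.32 within bins of signal, while the medians of single autosomes ran from -0.10 to 0.07. The libraries of A lay wholly above those of B at 24.8% of X peaks and wholly below at 2.03%, beside 10.9% and 10.4% on the autosomes. The median was 0.65 for A1 minus B1 and 0.04 for A2 minus B2, so the difference sits mainly in the first of these pairs. Of the reads in peaks, chromosome X held 1.53% in A1, 1.40% in A2, 1.37% in B1 and 1.41% in B2. The labels give male mice for all libraries.

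Promoters richest in G and C leaned to A. In 5 equal classes by GC content, the richest promoters with a peak (69.0% to 86.0%, 1815 promoters) had a median centred difference of 0.44, beside 0.24 in the poorest. Within bins of signal the medians were 0.19 and 0.01. A2 minus B2 gave 0.26 in the richest class and 0.05 in the poorest, and A1 minus B1 gave 0.12 and 0.05.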
